A study of Homo sapiens with 18 samples.

Results

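The heat shock protein genes followed here in SKBR3 cells were HSPA1A, HSPA1B, HSPA8, HSPH1, DNAJB1, HSP90AA1, HSP90AB1, HSPB1, HSPD1 and HSPE1. They were chosen by symbol, and every array probe annotated to one of these 10 symbols was taken, which gave 17 of the 48803 probes on the array and 10 of the 18852 genes with a symbol. The rule itself uses no measured value, but the members were chosen with earlier results of these data known. SKBR3 is an established human breast cancer line with amplified ERBB2. A resistant line had been derived from it, and lapatinib is a small-molecule inhibitor of the EGFR and ERBB2 kinases. There were 6 groups of 3 Illumina arrays (18 in all): lapatinib-resistant SKBR3 cells (SKBR3-R) left untreated (basal), treated at 0.1 µM or treated at 1 µM, and parental SKBR3 cells in the same 3 states. Both lines share the SKBR3 background, 1 resistant line was used, and neither the length of treatment nor the selection of the resistant line is given in the labels. The labels do not say whether the 3 arrays of a group came from separate cultures, so p-values measure the spread between these arrays, which may be technical.

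Heat shock proteins are molecular chaperones that hold, fold or refold other proteins. In the cytosol, HSP70 proteins bind unfolded stretches, J-domain proteins such as DNAJB1 deliver clients and trigger ATP hydrolysis, HSP110 proteins such as HSPH1 exchange the nucleotide, and HSP90 takes over clients that include many kinases, ERBB2 among them. In mitochondria, HSPD1 (HSP60) and its lid HSPE1 (HSP10) form a folding chamber, while the small heat shock protein HSPB1 (HSP27) holds unfolded proteins without using ATP. The transcription factor HSF1 drives the inducible genes of this set through heat shock elements, inverted repeats of the unit GAA.

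The promoters of the members are shown because most of these genes were lower with lapatinib in at least 1 line, while HSPB1 differed between the lines instead. RefSeq (GRCh38.p14) lists 16 start sites for the 10 genes, all of them found by symbol. The 250 bases before 1 start site of 4 genes follow, 5′ to 3′ in the direction of the gene, with each pair of inverted units (GAANNTTC or TTCNNGAA, which read the same on both strands) in capitals.
HSPA1A, chr6:31815293-31815542, plus strand: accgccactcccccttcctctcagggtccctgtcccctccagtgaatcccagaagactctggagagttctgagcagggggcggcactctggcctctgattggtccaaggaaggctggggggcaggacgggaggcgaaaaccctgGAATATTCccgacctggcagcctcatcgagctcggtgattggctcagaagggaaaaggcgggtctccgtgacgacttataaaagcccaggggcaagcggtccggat
HSPA1B, chr6:31827488-31827737, plus strand: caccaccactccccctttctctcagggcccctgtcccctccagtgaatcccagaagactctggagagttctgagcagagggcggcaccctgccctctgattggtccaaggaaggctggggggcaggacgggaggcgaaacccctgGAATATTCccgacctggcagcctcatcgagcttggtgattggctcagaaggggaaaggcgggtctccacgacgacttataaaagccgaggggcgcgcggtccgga
HSP90AA1, chr14:102087045-102087294, minus strand: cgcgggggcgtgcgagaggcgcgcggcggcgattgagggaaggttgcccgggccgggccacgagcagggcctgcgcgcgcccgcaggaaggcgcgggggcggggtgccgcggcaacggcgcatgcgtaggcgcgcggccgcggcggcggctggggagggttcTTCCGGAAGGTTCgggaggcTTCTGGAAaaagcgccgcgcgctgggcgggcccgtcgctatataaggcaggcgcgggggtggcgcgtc
HSPB1, chr7:76302423-76302672, plus strand: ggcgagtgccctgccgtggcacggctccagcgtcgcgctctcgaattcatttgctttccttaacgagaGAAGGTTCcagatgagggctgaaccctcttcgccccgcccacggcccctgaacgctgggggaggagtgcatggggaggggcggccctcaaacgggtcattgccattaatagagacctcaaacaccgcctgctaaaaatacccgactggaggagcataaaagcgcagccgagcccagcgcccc
In windows of 300 bases, which run from 250 before to 50 after a start site, such a pair was found in 9 of the 16 windows and in 8 of the 10 genes, HSPH1 and HSPE1 being the exceptions. It was present in 13.5% of all 35116 RefSeq promoters of that length. A run of 3 units (GAANNTTCNNGAA or TTCNNGAANNTTC, a form that contains 2 overlapping pairs) occurred in HSPA8, HSP90AA1, HSP90AB1 and HSPD1, against 0.49% of all promoters. In HSPA8 the match nearer to the start site read TTCTGGAAGGTTC and lay at -55 to -43, and in HSPD1 one match read TTCTGGAAAGTTC and lay at -245 to -233 from one of its 2 start sites. The HSPA1A and HSPA1B windows were 92% identical (277 of 301 aligned positions), with the element at -106 to -99 in HSPA1A and at -105 to -98 in HSPA1B. Both also held TATAAA, which 7.33% of all promoters hold, at -30 to -25 in HSPA1A and -29 to -24 in HSPA1B. The HSPE1 window and one HSPD1 window, on opposite strands of chromosome 2, shared 204 bases and the same CACGTG (7.26% of all promoters). The other HSPD1 window, which holds the run of 3 units, ended at 197500090, just short of the HSPE1 window starting at 197500129. Elements outside the windows were not searched for, so HSPE1 is an exception only within its window. These are matches of letters and not binding data.

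Of the 17 probes 16 were above background on all 18 arrays and were tested. The remaining HSPD1 probe (ILMN_1774410) was below background on all 18. Values are log2 of the background-corrected, quantile-normalised probe intensity, so a difference is relative to the other probes on the array, and the brightness of different probes is not compared. Before normalisation the mean probe signal per array was 481 ± 40.5, 425 ± 8.16 and 438 ± 8.75 in resistant cells and 646 ± 25.9, 533 ± 21.2 and 505 ± 25.0 in parental cells (basal, 0.1 µM and 1 µM, SD, n = 3 arrays each). Overall signal was thus highest in the parental basal group, and its part in the results was not tested. All 3 resistant 0.1 µM arrays correlated less with their own group than any other array did. Their means were 0.9888, 0.9886 and 0.9859 for replicates 1 to 3, against 0.9923 or above in the other 5 groups. Their member probes also lay furthest from their group means, by 0.15, 0.19 and 0.22 on average, against at most 0.12 on the other arrays. Replicate 3 was the most extreme of these and is the array that stood apart in the text below. Of 9 luminal breast and ERBB2 amplicon markers 8 were above background on all 18 arrays, ERBB2, GRB7 and KRT8 among them. CDH1 (E-cadherin) was above it on none. The summed normalised signal of the luminal list was 82059 to 89982, 91496 to 115580 and 99906 to 105034 in resistant cells and 83583 to 92789, 87279 to 92630 and 96965 to 106511 in parental cells (basal, 0.1 µM and 1 µM). In both lines its range at 1 µM lay above the basal range, and its part in the results was not tested. Among markers of other cells, 0 of 6 fibroblast genes passed on all 18 arrays (summed signal 427 to 511), CD68 alone of 4 leukocyte genes on the array did (1120 to 1850), and PECAM1, VWF and CDH5 of 4 endothelial genes did (425 to 542). Each sum takes 1 probe per gene on the array, so the endothelial signal was low beside the luminal sums of 82059 to 115580.

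With 1 µM lapatinib 7 of the 10 genes in resistant cells and 6 of the 10 in parental cells had lower signal than without it, by 1.23- to 1.65-fold. In resistant cells 7 of the 16 probes, 1 in each of 7 genes, were lower at 1 µM than under basal conditions and 0 were higher. Of all probes tested 8.46% were lower and 7.98% higher. In parental cells 9 of the 16 probes, from 6 genes, were lower and 0 were higher, where 10.5% of all 22706 probes were lower and 10.2% higher. All 3 arrays at 1 µM lay below all 3 basal arrays for 11 of the 16 probes in resistant cells (16.1% of all probes) and for 10 of the 16 in parental cells (17.9% of all probes). HSPA1A, HSPA1B, HSPH1, HSP90AA1 and HSPD1 were lower in both lines, HSPA8 and HSP90AB1 passed the test in resistant cells, and HSPE1 passed it in parental cells. DNAJB1 and HSPB1 passed it in neither. The count of 7 became 3 when resistant basal replicate 2 or resistant 1 µM replicate 2 was left out. Without the array that stood apart 8 probes were lower and 1 higher in resistant cells and 10 lower in parental cells. Counts over all probes in these runs are not given. A call is an adjusted p under 0.05 in limma's moderated test, with Benjamini-Hochberg adjustment over all 22706 probes. The median change over the 16 probes was -0.31 in resistant cells and -0.38 in parental cells, against 0.0043 and 0.0098 over all probes. In these bulk samples fewer cells of a kind and less RNA per cell cannot be told apart.

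**Figure D1:**
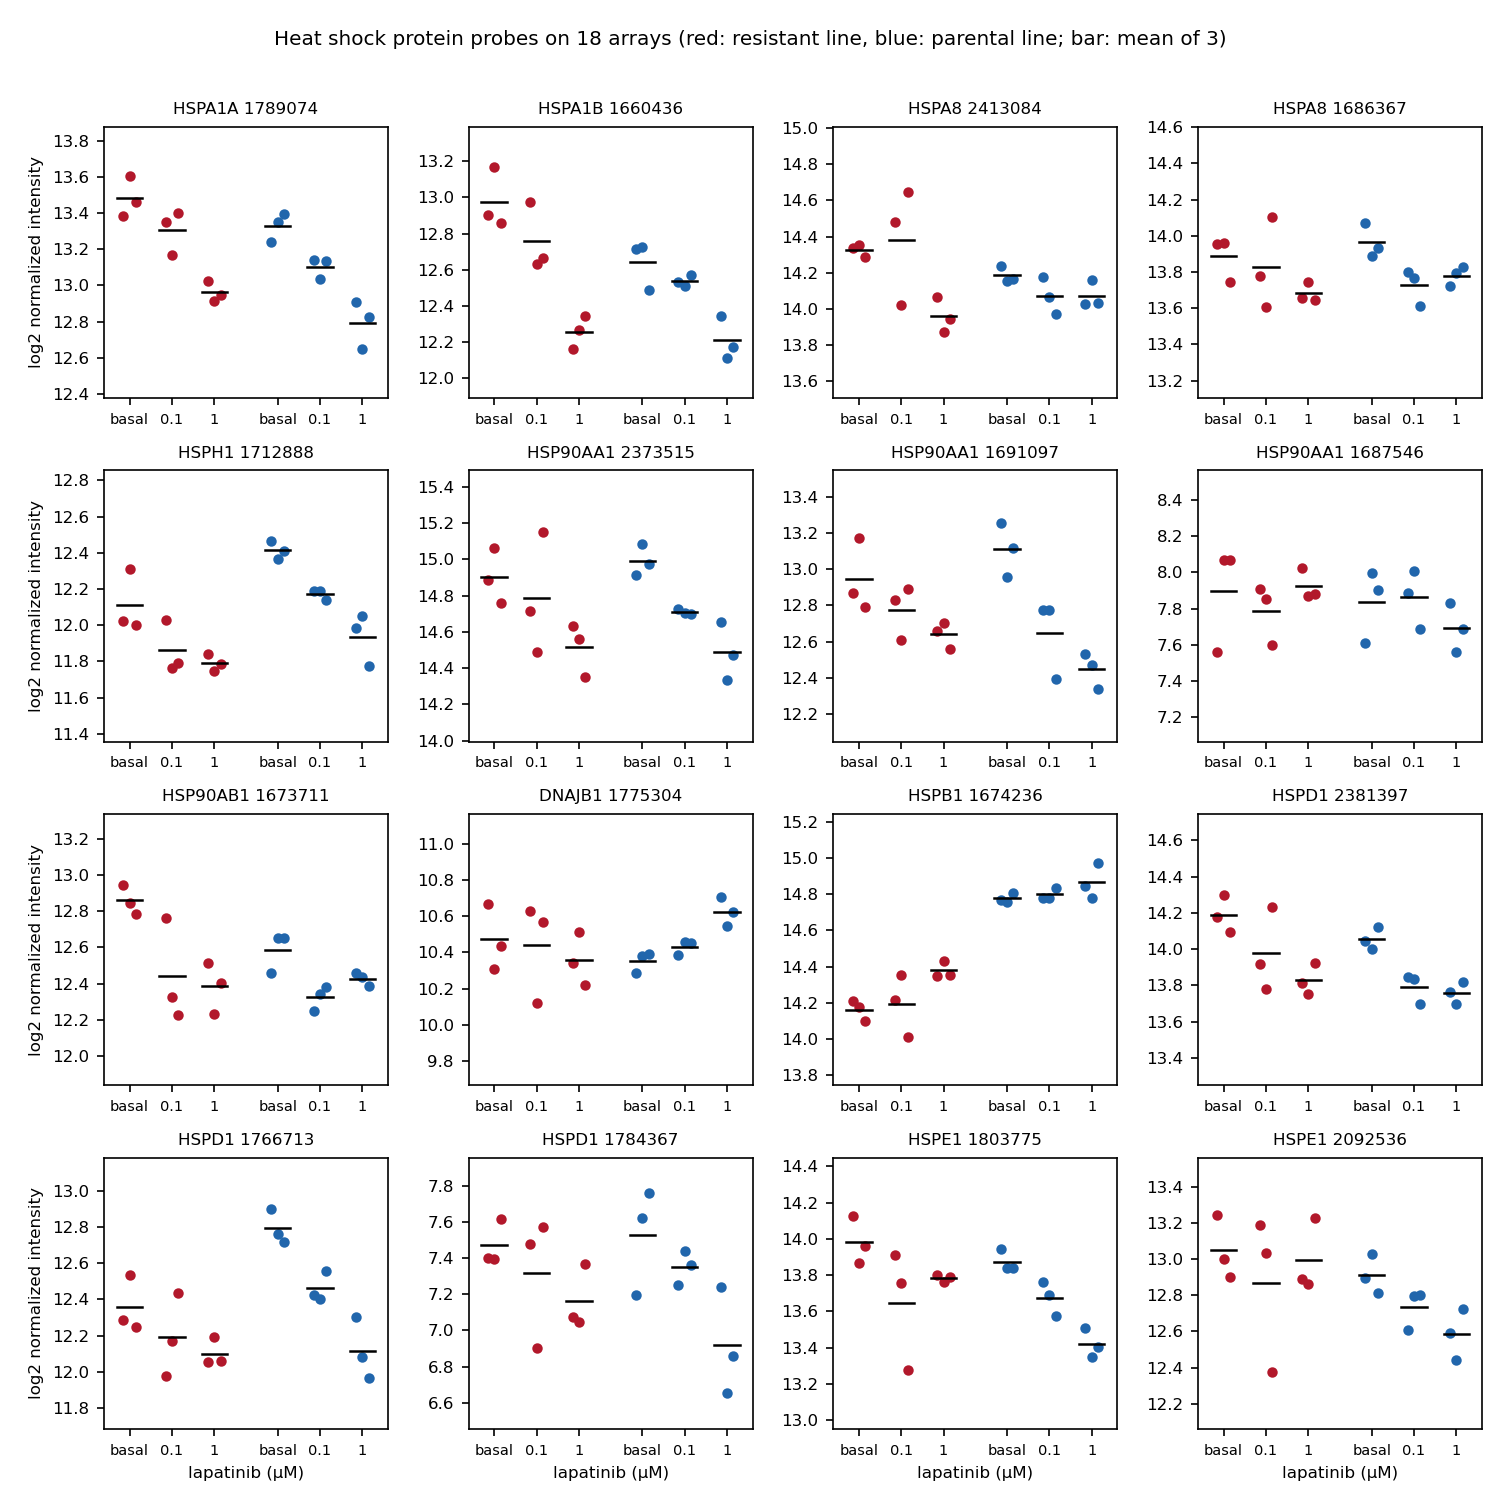
Log2 normalised intensity (vertical axis, 1.5 units high in every panel) of the 16 member probes above background, 1 point per array, with resistant cells in red on the left, parental cells in blue on the right, lapatinib dose on the horizontal axis and the mean of 3 arrays as a bar. In 8 of the 16 panels the mean is lowest at 1 µM in both lines, the HSPB1 panel separates the lines instead, and the resistant 0.1 µM arrays scatter most. How many of all probes have their lowest mean at 1 µM in both lines was not counted.

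Scaling mattered to how many probes passed. With each array scaled to a common median in place of quantile normalisation, 9 member probes in resistant cells and 13 in parental cells were lower at 1 µM and 0 were higher. The same scaling moved the balance of all tested probes towards lower. In resistant cells 2354 were lower and 986 higher, against 1920 and 1813 with quantile normalisation. In parental cells 5059 were lower and 1045 higher, against 2392 and 2327. At most 39.7% of probes were above background on any array, so the common median lies among probes that were not above it. Cyclic loess normalisation, an alternative chosen after the data were seen, called 7 and 9 member probes lower. Its counts over all probes are not given here.

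The inducible HSP70 genes HSPA1A and HSPA1B encode nearly the same protein and are the members that heat shock raises most sharply. HSPA1A in resistant cells measured 13.38, 13.61 and 13.46 under basal conditions, 13.35, 13.17 and 13.40 with 0.1 µM and 13.03, 12.91 and 12.95 with 1 µM. In parental cells it measured 13.24, 13.35 and 13.39 under basal conditions, 13.14, 13.04 and 13.13 with 0.1 µM and 12.91, 12.65 and 12.82 with 1 µM. In each line the 3 arrays at 1 µM lay below all 6 others of that line. At 1 µM HSPA1A was 1.43-fold lower than under basal conditions in resistant cells (log2 -0.52 ± 0.10 SE, adjusted p = 2.60e-04) and 1.45-fold lower in parental cells (-0.53 ± 0.10, adjusted p = 1.41e-04). The difference between these responses was 0.01 (95% interval -0.27 to 0.29).

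HSPA1B had the widest range over the 6 group means of the brightest probe of each gene, 0.77. Its probe gave 12.90, 13.17 and 12.86 in resistant basal cells, 12.98, 12.63 and 12.66 with 0.1 µM and 12.16, 12.27 and 12.34 with 1 µM. Parental cells gave 12.72, 12.73 and 12.49 under basal conditions, 12.53, 12.51 and 12.57 with 0.1 µM and 12.34, 12.11 and 12.17 with 1 µM. The 1 µM arrays were the lowest in either line, and the lines overlapped there while the basal arrays did not. HSPA1B was 1.65-fold lower at 1 µM in resistant cells (-0.72 ± 0.11, adjusted p = 1.86e-05) and 1.35-fold lower in parental cells (-0.43 ± 0.11, adjusted p = 0.00401). The responses differed by -0.28 (resistant minus parental, 95% interval -0.60 to 0.03, adjusted p = 0.518). The HSPA1A and HSPA1B messages are near copies, and signal of one gene on the probe of the other was not tested.

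HSPA8 is the constitutive HSP70 of the cytosol and has 2 probes. Probe ILMN_2413084 gave 14.34, 14.36 and 14.29 in resistant basal cells, 14.48, 14.02 and 14.64 with 0.1 µM and 14.07, 13.87 and 13.94 with 1 µM, and was lower at 1 µM than under basal conditions (-0.36 ± 0.11, adjusted p = 0.0270). In parental cells its 1 µM arrays (14.03, 14.16 and 14.03) overlapped the basal arrays (14.24, 14.15 and 14.17), with a change of -0.11 (95% interval -0.35 to 0.12). Probe ILMN_1686367 passed in neither line, at -0.20 (-0.42 to 0.02) in resistant cells and -0.18 (-0.40 to 0.04) in parental cells. The resistant call on the first probe was lost when any of 5 arrays of the groups compared was left out, with an adjusted p of up to 0.114.

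HSPH1 is the HSP110 protein that recharges HSP70 and helps it pull apart aggregates. It measured 12.02, 12.31 and 12.00 in resistant basal cells, 12.03, 11.76 and 11.79 with 0.1 µM and 11.84, 11.75 and 11.79 with 1 µM. In parental cells the values were 12.46, 12.37 and 12.41 under basal conditions, 12.19, 12.19 and 12.14 with 0.1 µM and 11.98, 12.05 and 11.78 with 1 µM. The parental arrays fell into 3 separate tiers by dose, whereas the 0.1 and 1 µM arrays of resistant cells overlapped. HSPH1 was lower at 1 µM in resistant cells (-0.32 ± 0.10, adjusted p = 0.0297) and in parental cells (-0.48 ± 0.10, adjusted p = 9.42e-04). The resistant call was lost in 5 of 28 settings, among them without a filter on dim probes.

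DNAJB1 (HSP40) is the J-domain partner of HSP70. In resistant cells it gave 10.67, 10.31 and 10.44 under basal conditions, 10.63, 10.12 and 10.57 with 0.1 µM and 10.34, 10.51 and 10.22 with 1 µM, groups that overlapped throughout. Parental cells gave 10.29, 10.38 and 10.39 under basal conditions, 10.38, 10.46 and 10.45 with 0.1 µM and 10.71, 10.54 and 10.62 with 1 µM, where the 1 µM arrays lay above the other 6. Neither change at 1 µM passed the test: -0.11 (95% interval -0.36 to 0.13) in resistant cells, and 0.27 (0.03 to 0.52, adjusted p = 0.114) in parental cells, where median scaling turned the sign (-0.05). The difference between these responses, -0.38 (-0.73 to -0.04), did not pass either (adjusted p = 0.393).

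HSP90AA1, the inducible HSP90 of the cytosol, has 3 probes above background, and 2 of them passed in at least 1 line. Probe ILMN_2373515 measured 14.89, 15.06 and 14.76 in resistant basal cells, 14.71, 14.49 and 15.15 with 0.1 µM and 14.63, 14.56 and 14.35 with 1 µM. In parental cells it measured 14.91, 15.09 and 14.97 under basal conditions, 14.73, 14.70 and 14.70 with 0.1 µM and 14.65, 14.34 and 14.47 with 1 µM. Within each line all 1 µM arrays were below all basal arrays, and the value of 15.15 came from the array that stood apart. This probe was 1.31-fold lower at 1 µM in resistant cells (-0.39 ± 0.13, adjusted p = 0.0342) and 1.42-fold lower in parental cells (-0.51 ± 0.13, adjusted p = 0.00422). Probe ILMN_1691097 had 12.87, 13.17 and 12.79 in resistant basal cells against 13.25, 12.96 and 13.12 in parental basal cells, and at 1 µM 12.66, 12.70 and 12.56 in resistant cells against 12.53, 12.47 and 12.34 in parental cells. It was lower at 1 µM in parental cells (-0.66 ± 0.12, adjusted p = 1.13e-04), and its change in resistant cells, -0.30 ± 0.12, did not pass (adjusted p = 0.0800). Probe ILMN_1687546, with 7.56 to 8.07 over all arrays, passed in neither line, with 0.03 (95% interval -0.26 to 0.31) in resistant cells, a value that turned to -0.05 with median scaling, and -0.14 (-0.43 to 0.14) in parental cells. The resistant call of probe ILMN_2373515 was lost in 5 of 28 settings.

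HSP90AB1 is the constitutive HSP90 and has 1 probe. It gave 12.95, 12.85 and 12.78 in resistant basal cells, 12.76, 12.33 and 12.23 with 0.1 µM and 12.52, 12.23 and 12.41 with 1 µM. Parental cells gave 12.46, 12.65 and 12.65 under basal conditions, 12.25, 12.34 and 12.38 with 0.1 µM and 12.46, 12.44 and 12.39 with 1 µM. All 3 resistant basal arrays lay above the other 15 arrays, and the parental 1 µM arrays overlapped the basal ones. HSP90AB1 was 1.39-fold lower at 1 µM in resistant cells (-0.48 ± 0.11, adjusted p = 0.00337), and the change in parental cells was -0.16 (95% interval -0.39 to 0.07). The responses differed by -0.32 (-0.64 to 0.01, adjusted p = 0.479), so a difference between the lines was not shown.

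HSPD1 forms the mitochondrial folding chamber and has 3 probes above background. HSPD1 probe ILMN_2381397 gave 14.18, 14.30 and 14.10 in resistant basal cells, 13.92, 13.78 and 14.23 with 0.1 µM and 13.81, 13.75 and 13.92 with 1 µM. In parental cells it gave 14.04, 14.00 and 14.12 under basal conditions, 13.84, 13.84 and 13.70 with 0.1 µM and 13.76, 13.70 and 13.82 with 1 µM. No 1 µM array reached a basal array in either line. This probe was lower at 1 µM in resistant cells (-0.36 ± 0.10, adjusted p = 0.0152) and in parental cells (-0.30 ± 0.10, adjusted p = 0.0423), a parental call that was kept in 18 of 28 settings. Probe ILMN_1766713 was lower in parental cells (-0.68 ± 0.11, adjusted p = 5.63e-05), with 12.30, 12.08 and 11.97 at 1 µM against 12.90, 12.76 and 12.72 under basal conditions, while in resistant cells 12.05, 12.19 and 12.06 at 1 µM against 12.29, 12.54 and 12.25 under basal conditions gave -0.26 ± 0.11 and did not pass (adjusted p = 0.132). Probe ILMN_1784367 was lower in parental cells (-0.61 ± 0.17, adjusted p = 0.00892) although 1 array overlapped, and its resistant change was -0.31 (95% interval -0.65 to 0.04).

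HSPE1, the lid of the HSPD1 chamber, gave 14.13, 13.87 and 13.96 on probe ILMN_1803775 in resistant basal cells, 13.91, 13.76 and 13.27 with 0.1 µM and 13.80, 13.76 and 13.79 with 1 µM. Parental cells gave 13.94, 13.84 and 13.84 under basal conditions, 13.76, 13.69 and 13.57 with 0.1 µM and 13.51, 13.35 and 13.40 with 1 µM. Parental arrays again formed 3 tiers by dose, and the low resistant value of 13.27 came from the array that stood apart. HSPE1 was 1.37-fold lower at 1 µM in parental cells (-0.45 ± 0.12, adjusted p = 0.00555), and the resistant change was -0.20 (95% interval -0.44 to 0.04). Its other probe, ILMN_2092536, passed in neither line, with -0.06 (-0.36 to 0.24) in resistant cells and -0.32 (-0.63 to -0.02, adjusted p = 0.129) in parental cells.

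**Figure D2:**
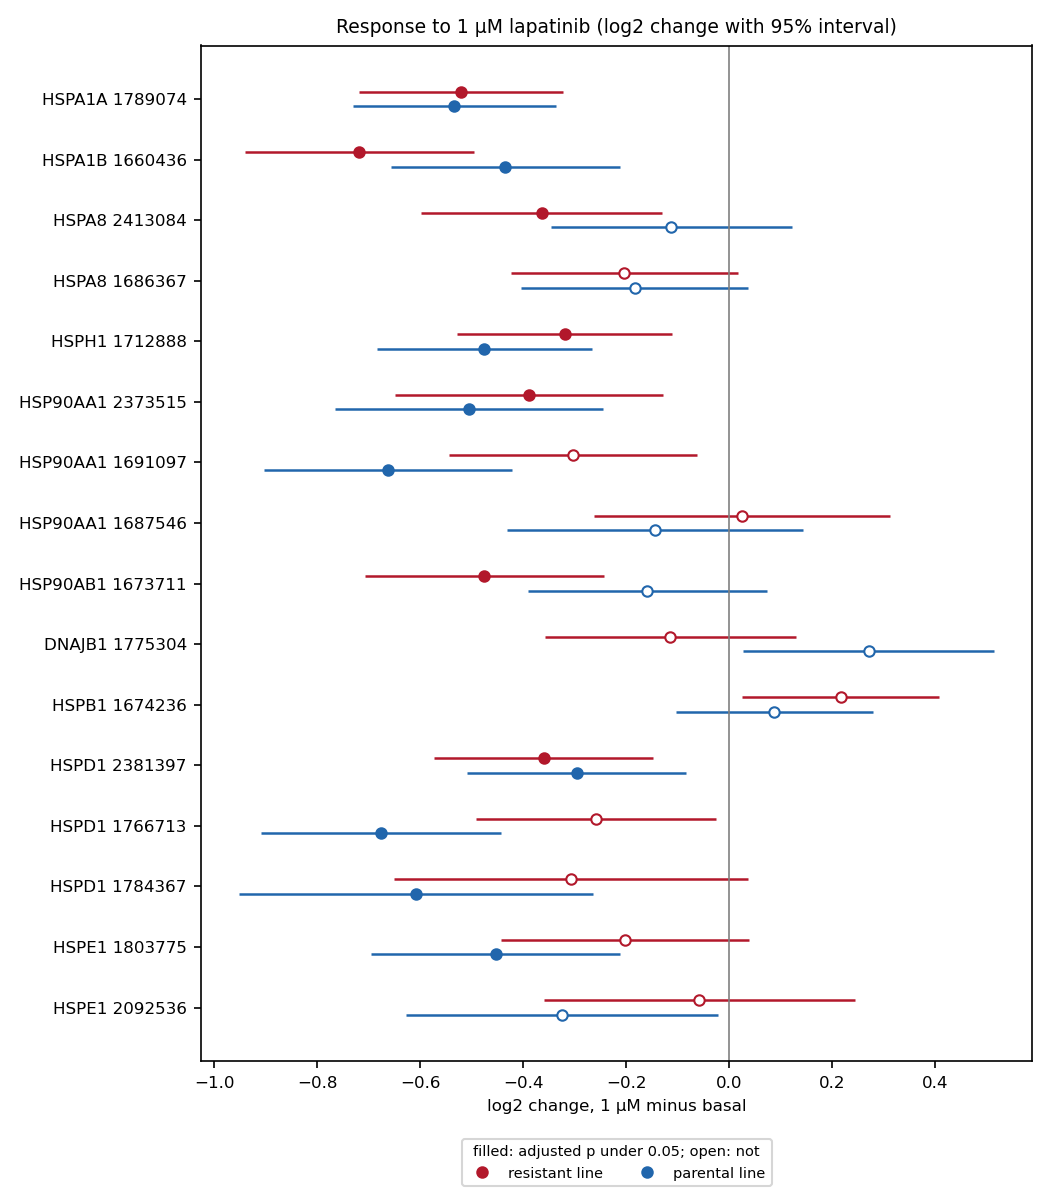
Log2 change of the 16 member probes at 1 µM lapatinib minus basal (horizontal axis), with 95% intervals from the fit, resistant cells in red above parental cells in blue, and filled points for an adjusted p under 0.05. In resistant cells 7 points are filled and in parental cells 9, all of them left of 0.

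At 0.1 µM fewer probes passed than at 1 µM. In resistant cells HSP90AB1 was lower than under basal conditions (-0.42 ± 0.11, adjusted p = 0.0295), 1 of 16 probes where 1.94% of all probes were lower. That call was lost without the array that stood apart (-0.32, adjusted p = 0.0969) and without any of 4 other arrays. In parental cells HSP90AA1 probe ILMN_1691097 was lower (-0.46 ± 0.12, adjusted p = 0.0122), with 12.77, 12.77 and 12.39 at 0.1 µM, 1 of 16 where 4.02% of all probes were lower. It was lost without parental basal replicate 1 or without parental 0.1 µM replicate 3, with an adjusted p of up to 0.108. All 0.1 µM arrays lay below all basal arrays for 10 of the 16 parental probes, a pattern that 13.4% of all probes showed. Of the 16, 8 had an unadjusted p under 0.05 in limma's test and 1 passed (4 without the array that stood apart). Neither the share of all probes at that unadjusted cut nor their count without that array is given. Median scaling called 5 member probes lower in resistant cells and 12 in parental cells, while over all probes it called 974 lower and 179 higher in resistant cells, against 441 and 565 with quantile normalisation, and 4621 lower and 311 higher in parental cells, against 913 and 894. It shifted the median of all probes by -0.13 in parental cells.

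From 0.1 to 1 µM, HSPA1A, HSPA1B and HSPA8 probe ILMN_2413084 were lower in resistant cells (-0.34 ± 0.10, -0.50 ± 0.11 and -0.42 ± 0.11, with adjusted p of 0.0462, 0.00647 and 0.0367), 3 of 16 where 2.1% of all probes were lower. Without the array that stood apart 1 remained called, and HSPA1A (-0.30, adjusted p = 0.0701) and HSPA8 (-0.29, adjusted p = 0.102) were lost. In parental cells 0 of 16 passed limma's test between the doses, where 3.36% of all probes passed. Of the 16, 6 had an unadjusted p under 0.05 in that test, a cut at which all probes were not counted. Without that same array 4 passed. The array is in neither group compared, and it enters through the normalisation, the filter and the shared spread. Counts over all probes without that array are not given for either line. Over the 3 doses the group means of the brightest probe were in downward order for 7 of 10 genes in resistant cells and 6 of 10 in parental cells. They were in upward order for 1 gene in resistant cells (HSPB1) and for 2 in parental cells (DNAJB1 and HSPB1). How many of all genes had their means in either order was not counted.

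Between the lines HSPB1 was the member with a difference at every dose. Resistant cells gave 14.21, 14.18 and 14.10 under basal conditions, 14.22, 14.36 and 14.01 with 0.1 µM and 14.35, 14.43 and 14.36 with 1 µM. Parental cells gave 14.77, 14.76 and 14.81 under basal conditions, 14.78, 14.78 and 14.83 with 0.1 µM and 14.85, 14.78 and 14.97 with 1 µM. All 9 resistant arrays were below all 9 parental arrays. HSPB1 was 1.53-fold lower in resistant cells under basal conditions (-0.62 ± 0.09, adjusted p = 3.45e-05), 1.52-fold lower with 0.1 µM (-0.60 ± 0.09, adjusted p = 3.88e-05) and 1.40-fold lower with 1 µM (-0.49 ± 0.09, adjusted p = 4.52e-04). These calls were kept in all 28 settings run, and median scaling gave -0.96, -1.05 and -0.65. The change of HSPB1 at 1 µM did not pass in either line: 0.22 (95% interval 0.03 to 0.41, adjusted p = 0.122) in resistant cells and 0.09 (-0.10 to 0.28) in parental cells, and median scaling gave 0.15 and -0.17. Without resistant 0.1 µM replicate 3 the resistant value of 0.22 passed (adjusted p = 0.0270).

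No other member passed in more than 1 of the 3 comparisons between the lines. Under basal conditions 3 of 16 probes passed, where 10.8% of all probes did: HSPB1, HSPD1 probe ILMN_1766713 (lower in resistant cells, -0.44 ± 0.11, adjusted p = 0.0113) and HSPA1B (higher in resistant cells, 0.33 ± 0.11, adjusted p = 0.0473). HSPD1 measured 12.29, 12.54 and 12.25 on that probe in resistant basal cells, against 12.90, 12.76 and 12.72 in parental basal cells, but the 2 other HSPD1 probes gave 0.14 (95% interval -0.08 to 0.35) and -0.06 (-0.40 to 0.29). The HSPA1B difference was kept in 11 of 28 settings and turned to -0.05 with median scaling, which changed the sign of 9 of the 16 differences under basal conditions, 10 with 0.1 µM and 3 with 1 µM. With 0.1 µM the 2 probes past the threshold (14.3% of all) were HSPB1 and HSPH1 (-0.31 ± 0.10, adjusted p = 0.0386), and HSPH1 did not pass without the array that stood apart (-0.28, adjusted p = 0.0740). With 1 µM they were HSPB1 and HSPE1 probe ILMN_1803775 (higher in resistant cells, 0.36 ± 0.12, adjusted p = 0.0351), against 15% of all probes, and HSPE1 did not pass with median scaling (0.21, adjusted p = 0.349). Between the basal groups median scaling shifted the median of all probes by -0.14, and it called 5225 probes lower and 478 higher in resistant cells, against 1276 and 1169 with quantile normalisation. With 0.1 µM it called 2712 lower and 648 higher, against 1639 and 1619, and with 1 µM 2611 lower and 739 higher, against 1757 and 1642.

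**Figure D3:**
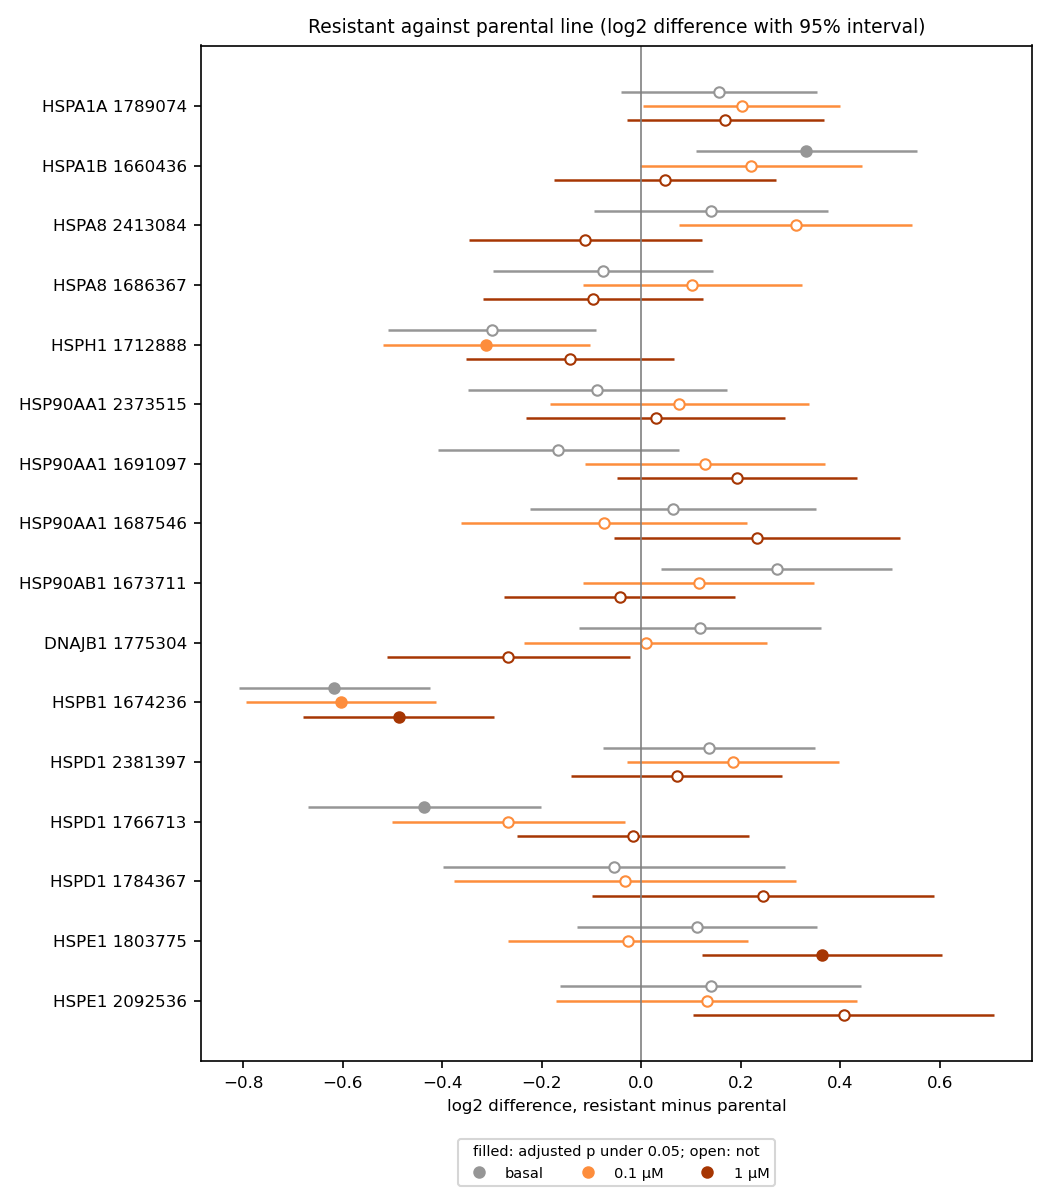
Log2 difference, resistant minus parental cells (horizontal axis), of the 16 member probes under basal conditions (grey), with 0.1 µM (orange) and with 1 µM lapatinib (brown), with 95% intervals and filled points for an adjusted p under 0.05. HSPB1 is the only gene with 3 filled points, between -0.62 and -0.49.

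Whether the lines responded differently was tested directly as the difference of their responses. No member probe passed in limma's test, 0 of 16 at 0.1 µM and 0 of 16 at 1 µM, against 0.0044% and 0.273% of all probes. At an unadjusted p under 0.05, a cut at which all probes were not counted, there were 0 and 3 members. Those 3, all at 1 µM, were HSPD1 probe ILMN_1766713 (0.42, 95% interval 0.09 to 0.75), DNAJB1 (given above) and HSP90AA1 probe ILMN_1691097 (0.36, 0.02 to 0.70), with adjusted p of 0.309, 0.393 and 0.430. A p that misses the threshold does not show equal responses: the widest interval, for HSPD1 probe ILMN_1784367 at 1 µM, ran from -0.19 to 0.79.

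The gene patterns most like HSPA1B were found by the root mean square difference of the 6 group means on the log2 scale, after centring each gene on its own mean. Of 12537 genes outside the members the 5 nearest were S100A3 (0.06), a calcium-binding protein of the S100 family, NEIL2 (0.07), a DNA glycosylase of base excision repair, HSPA14 (0.07), a ribosome-associated HSP70 relative, GINS3 (0.07), a subunit of the replicative helicase complex, and POC1A (0.07), a centriole protein. The median over all these genes was 0.30. HSPA1A stood at 0.07, which would be rank 6 among them, followed among members by HSP90AA1 (0.15), HSPD1 (0.15) and HSPA8 (0.16), while HSPB1 was furthest at 0.50.

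Genes that work with the members were counted in 6 lists, each gene by its brightest probe, at 1 µM against basal. Of all 12547 genes 11.1% were lower and 9.92% higher in resistant cells, and 12.6% were lower and 13.5% higher in parental cells. Among 22 other HSP70, HSP110 and J-domain genes 7 were lower and 1 higher in resistant cells (median -0.16), and 5 were lower and 1 higher in parental cells (median -0.10), against medians over all genes of -0.0009 and 0.01. HSPA4L, an HSP110 relative, was lower in both lines (-0.52 and -0.79, adjusted p = 0.00773 and 8.46e-05), as was DNAJC9, a J-domain protein that handles histones (-0.54 and -0.62, adjusted p = 5.37e-04 and 8.71e-05). HSPA12A was lower in both lines as well (-0.50 in resistant and -0.58 in parental cells, adjusted p = 0.00163 and 2.50e-04). HSPA14 changed by -0.62 in resistant cells and -0.36 in parental cells (adjusted p = 5.72e-04 and 0.0375), the parental call being kept in 21 of 28 settings.

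Co-chaperones of HSP70 and HSP90 had 4 of 22 lower and 0 higher in resistant cells (median -0.14), and 7 lower and 1 higher in parental cells (median -0.18). FKBP5, an immunophilin of HSP90 complexes, was lower in resistant cells (-0.71, adjusted p = 4.09e-05) and in parental cells (-0.70, adjusted p = 3.56e-05). CACYBP, which binds calcyclin, was lower too (-0.52 and -0.84, adjusted p = 0.00289 and 7.42e-06). STIP1, the adaptor that joins HSP70 to HSP90, was lower in resistant cells (-0.64, adjusted p = 6.89e-04) and in parental cells (-0.52, adjusted p = 0.00429). In parental cells HSPBP1, a nucleotide exchange factor of HSP70 (-0.84, adjusted p = 8.51e-05), and CHORDC1, which binds HSP90 (-0.71, adjusted p = 2.41e-04), were lower.

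In the cytosolic CCT chaperonin and its partner prefoldin 2 of 14 genes were lower in resistant cells and 3 of 14 in parental cells, 0 higher in either (medians -0.13 and -0.17), 2 of 14 being near the 11.1% of all genes in resistant cells. The called genes were CCT2 (-0.49, adjusted p = 0.00869) and the prefoldin subunit VBP1 (-0.35, adjusted p = 0.0194) in resistant cells, and TCP1 (-0.63, adjusted p = 1.56e-04), CCT7 (-0.44, adjusted p = 0.00575) and CCT4 (-0.32, adjusted p = 0.0337) in parental cells. VBP1 was kept in 25 and CCT4 in 22 of 28 settings. Mitochondrial chaperones and proteases had 4 of 15 lower and 1 higher in resistant cells and 4 lower and 2 higher in parental cells. LONP1, a protease of the matrix, was lower (-0.46 and -0.39, adjusted p = 0.00782 and 0.0195), and HSCB, a J-domain protein of iron-sulfur cluster assembly, was higher (0.34 and 0.46, adjusted p = 0.0388 and 0.00391) in resistant and parental cells. Both HSCB calls were lost with median scaling (0.20 and 0.16, adjusted p = 0.400 and 0.431), and the resistant one was kept in 19 of 28 settings. LONP1 was kept in 27 and 25 of 28.

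Among the other small heat shock proteins, 4 were measured: 1 was lower and 1 higher in resistant cells, and 1 was higher in parental cells. CRYAB (αB-crystallin), a holdase like HSPB1, was higher at 1 µM in resistant cells (0.99 ± 0.12 SE, adjusted p = 5.60e-07), with group means of 10.64 against 9.65, and in parental cells (1.01 ± 0.12, adjusted p = 2.65e-07), with 10.31 against 9.30. HSPB8, the partner of BAG3, was higher in resistant than in parental cells under basal conditions (1.00 ± 0.13, adjusted p = 4.04e-06), with 0.1 µM (1.24 ± 0.13, adjusted p = 9.02e-08) and with 1 µM (1.13 ± 0.13, adjusted p = 3.90e-07), the opposite direction to HSPB1. HSPB7 was lower in resistant cells under those conditions (-0.41, -0.57 and -0.54, adjusted p = 0.0316, 0.00214 and 0.00304), the basal call being kept in 22 of 28 settings. GRPEL2, a nucleotide exchange factor of mitochondrial HSP70, also separated the lines, lower in resistant cells under basal conditions (-0.57, adjusted p = 2.05e-04), with 0.1 µM (-0.58, adjusted p = 1.28e-04) and with 1 µM (-0.59, adjusted p = 8.03e-05). At 1 µM against basal GRPEL2 was lower in both lines (-0.45 in resistant and -0.43 in parental cells, adjusted p = 0.00143 and 0.00199).

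The list of heat shock factors and other HSF1 targets shares 10 of its 20 genes with the lists above. Of 17 measured, 6 were lower and 1 higher in resistant cells (median -0.24), and 7 were lower and 2 higher in parental cells (median -0.18). DEDD2, a death-effector domain protein, was higher in resistant cells (0.57, adjusted p = 0.00120) and in parental cells (0.63, adjusted p = 3.36e-04), and both calls were lost with median scaling (0.42 and 0.32, adjusted p = 0.0649 and 0.129). Between the lines under basal conditions, the genes of this list that were higher in resistant cells were HSPB8 (given above), STIP1 and ZFAND2A. STIP1 differed by 0.42 (adjusted p = 0.0329) and ZFAND2A, a proteasome-associated stress protein, by 0.41 (adjusted p = 0.0234). The calls of STIP1 and ZFAND2A were lost with median scaling (0.06 and 0.09). PPID, a cyclophilin of HSP90 complexes that is in the co-chaperone list and not in this one, was also higher (0.75, adjusted p = 0.00242). HSPBP1 of the co-chaperone list passed in the other direction, lower in resistant cells (-0.50, adjusted p = 0.0238), and was kept in 25 of 28 settings.

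**Figure D4:**
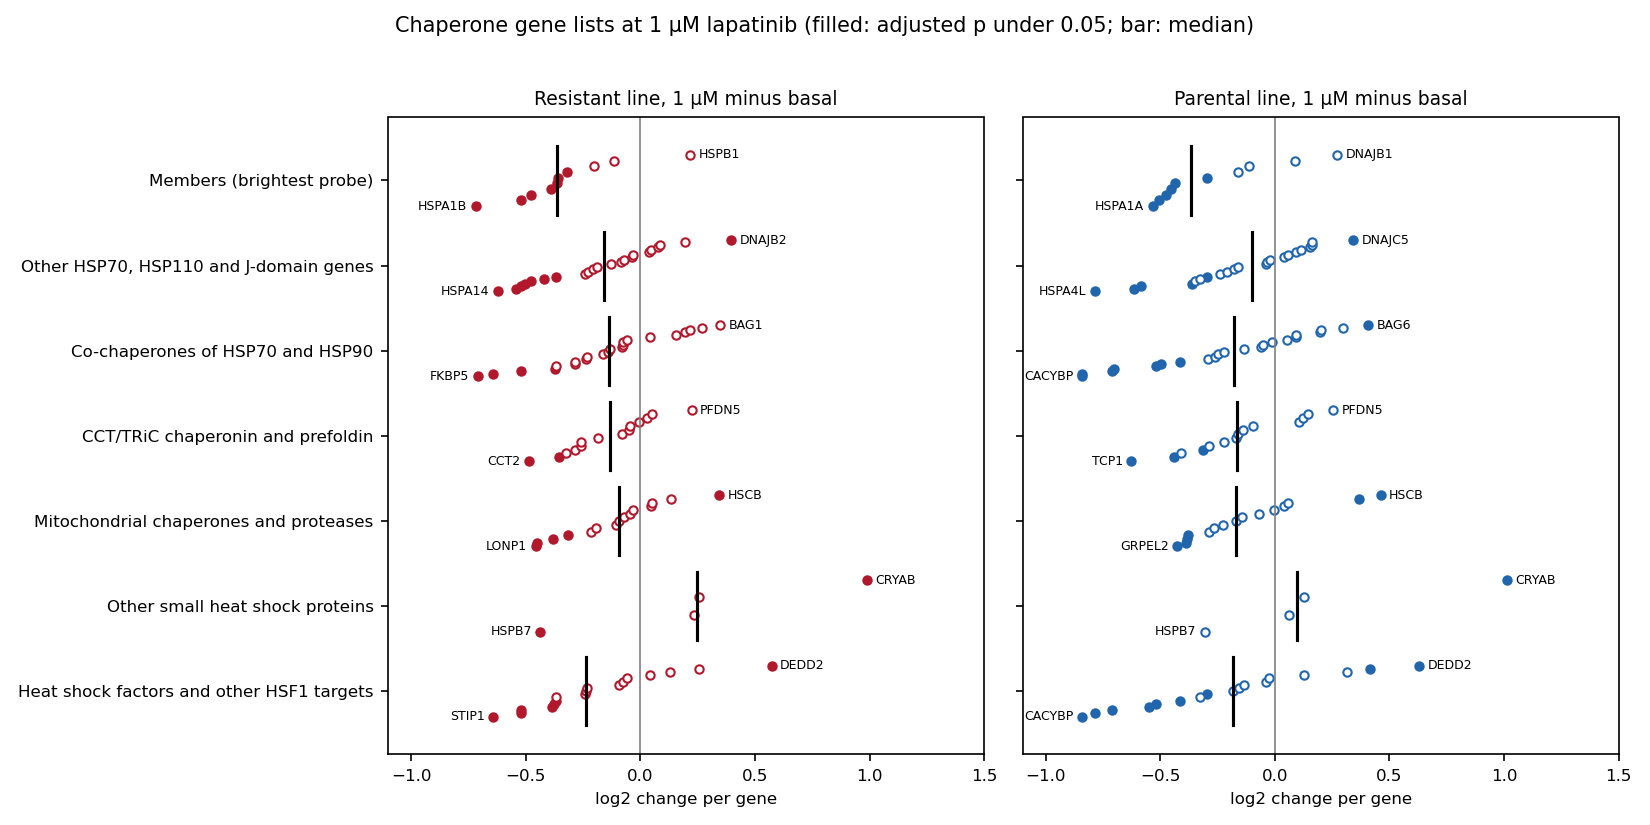
Log2 change at 1 µM minus basal (horizontal axis) of each gene in 7 rows, the members on top and the 6 lists under them, in resistant cells (left, red) and parental cells (right, blue), with filled points for an adjusted p under 0.05 and a bar at the median. The members' median lies at -0.36 in each panel, left of all list medians, and CRYAB is the rightmost point in both.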

How the data were processed

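The deposited table holds probe intensities of 18 Illumina Human-6 v2 BeadChips hybridised with biotin-labelled cRNA from total RNA; per the labels the authors exported it from BeadStudio (no version stated), and it was deposited as non-normalised. The labels name no genome build, and the promoter coordinates are on GRCh38.p14. The labels name 48697 probes and the table has 48803. The members, the lists and the rule for named genes were chosen with earlier results of these data known: all member probes, up to 4 genes per list and comparison with the largest change among those past the threshold, and the 5 genes most like the member with the widest range. Fewer than the rule allows are printed.

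Without control probes or detection values, normexp (offset 50), quantile normalisation and log2 were used (limma 3.58.1, R 4.3.3). Background was the mode of each array's log2 signal, with its spread estimated from values under the mode at the 95% level, and the 22706 probes above it on at least 3 arrays were tested with lmFit, contrasts.fit and eBayes with an intensity trend, over all 18 arrays. Every adjusted p is limma's, two-sided, Benjamini-Hochberg adjusted over those probes within each of 11 comparisons, with a threshold of 0.05, and errors after ± are SE unless named SD. Comparisons of the same line share their basal or treated arrays. The fit was tested on simulated data. Symbols came from the platform annotation, updated by gene ID for 28059 of 28098 probes with 1 symbol; 13 probes had several and 20692 none. Of the tested probes 73.9% had 1 symbol. Promoters are RefSeq's. The number of arrays limits the precision. Alternatives covered the authors' deposited normalised intensity (log2 taken here), no background correction, other scalings, the filter, the trend, the groups fitted, the brightest probe, a replicate block and leaving out each array. The authors' deposited normalised intensities are linear, keep each array's probe order (Spearman correlation with the non-normalised values 1 to 4 decimals) and have a median of 84.7 on every array.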

Additional observations from a re-analysis of the deposited data

How the results depend on the processing

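The calls of HSPA1A, HSPA1B, HSPH1, HSP90AA1 (2 probes), HSPD1 probe ILMN_1766713 and HSPE1 probe ILMN_1803775 at 1 µM in parental cells, of HSPA1A, HSPA1B and HSP90AB1 at 1 µM in resistant cells, and of HSPB1 between the lines were kept in every setting run. Median scaling changed the sign of 9, 10 and 3 of the 16 differences between the lines (basal, 0.1 µM and 1 µM). In 2 of these the difference was called in one of the scalings, HSPA1B under basal conditions (-0.0472, adjusted p = 0.818) and HSP90AA1 probe ILMN_2373515 with 0.1 µM (-0.4095, adjusted p = 0.0181); the cause was not tested. Counts of member probes called moved as follows. Apart from median scaling, given in part above, counts over all probes in these settings are not printed. At 0.1 µM against basal in resistant cells, 1 became 5 with median scaling, 0 when only the groups compared were fitted and 2 with cyclic loess. In parental cells, 1 became 12 with median scaling, 2 with only probes above background on all 18 arrays, 0 with the brightest probe of each gene, 4 with only the groups compared and 2 with cyclic loess. At 1 against 0.1 µM in resistant cells, 3 became 1 with median scaling, 1 without the intensity trend, 0 with only the groups compared and 1 with cyclic loess, and in parental cells 0 became 1 with the filter on all 18 arrays, 3 with only the groups compared and 1 with cyclic loess. Between the lines, 3 under basal conditions became 6 with median scaling and 5 with only the groups compared. With 0.1 µM, 2 became 4 with median scaling and 1 without a filter, without the trend, with only the groups compared and with cyclic loess. With 1 µM, 2 became 1 without the trend and 4 with only the groups compared.

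Leaving out 1 array at a time gave 3 to 9 calls at 1 µM against basal in resistant cells and 7 to 10 in parental cells. The 3 came without resistant basal replicate 2 or resistant 1 µM replicate 2, and the 9 without resistant 0.1 µM replicate 3. It gave 0 to 2 at 0.1 µM against basal in resistant cells and 0 to 4 in parental cells, 0 to 3 and 0 to 4 at 1 against 0.1 µM, and 1 to 4, 1 to 3 and 1 to 3 between the lines (basal, 0.1 µM and 1 µM). The differences of responses had 0 calls in all of these. Counts over all probes are not given for these runs or for the replicate block below. Same-numbered arrays did not deviate together (correlation -0.172 to 0.123, mean -0.0067, and 2 of 18 arrays correlated best with their own number), so the numbers were not taken as pairs. With the replicate number as a block, 7 and 9 member probes were called at 1 µM against basal in resistant and parental cells, 1 and 1 at 0.1 µM against basal, 2 and 0 at 1 against 0.1 µM, 2, 2 and 2 between the lines, and 0 for both differences of responses.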
